A study of Rattus norvegicus with 28 samples.

Results

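Microglia are the resident macrophages of the spinal cord, and after contusion they become activated while macrophages from the blood enter the lesion. The genes described here are 10 markers of that activated state: Cd68, Aif1, Tyrobp, Trem1, Trem2, Ptprc, Cd14, Gpnmb, Lgals3 and Spp1. They were picked by gene symbol, and chosen by name with earlier results of these arrays known, among them their higher signal in injured cord and the fall of Trem1 between weeks 1 and 2. Comparisons with T0, and Trem1 between T1 and T2 or T8, are therefore given as descriptions and support nothing. The 10 genes were measured by 14 probes in 23 spots, out of 35469 features (the mean of all probes that carry the same gene symbol), 41012 probes and 43379 spots that are not controls.

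The 28 arrays measured RNA from 1.5 cm pieces of thoracic spinal cord of adult female Sprague Dawley rats, and each of the 7 groups held 4 arrays. T0 cords were uninjured in the paper and sham in the labels. T1, T2, T4 and T8 cords were taken 1, 2, 4 and 8 weeks after a severe 250 kdyn contusion at thoracic level 8, with no cells transplanted. According to the methods, injured controls received an equal volume of medium without cells, and the time points are not named. T1_NPC cords received neural progenitor cells (NPCs) right after injury and were taken at week 1, and T2_NPC cords received them 1 week after injury and were taken at week 2, so both were examined 1 week after transplantation. The NPCs had been grown from the injured cords of other adult rats and were placed caudal and rostral to the lesion. All animals were perfused with saline, and the labels list the immunosuppressant FK-506, given from the day before transplantation, for every group, so that its use in cords without cells is unclear. The source label of T2_NPC gives a segment that starts at a lower thoracic level than the other groups, and does not mention removal of the dura. The methods give 4 animals per group for the arrays, so p-values measure the spread between animals.

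Several properties of the arrays precede the results. The deposited value table and the scanner outputs name different samples for 16 of the 28 arrays: each column had the rank order of exactly one output, and in those 16 it was another sample's (rank correlation with its own output 0.948 to 0.992). Groups here follow the value table, and flags, slide and scan session follow the matched output. When the outputs were instead used under the samples they were deposited for, none of the 10 genes passed limma's adjusted threshold in any comparison, T1 against T0 included, and 0 to 6 had an unadjusted p under 0.05. A scan session here is a calendar month of scan dates, so arrays scanned on different days can share a session. The time course arrays were scanned in sessions 1 and 2, but T1_NPC and T2_NPC each filled a slide of their own in session 3, so transplantation, slide and session cannot be told apart. One array, T1_NPC replicate 2, stood below the other 3 arrays of its group for 7 of the 10 genes, and comparisons of T1_NPC with T1 are given with and without it. The labelled tissue showed its own markers: those measured for neurons, oligodendrocytes and astrocytes were well above background on every array, except Chat on 1 T2 array. The defining B-cell gene Ms4a1 was not well above background on any array.

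In these cells TYROBP is an adaptor that carries the signal of several receptors without a signalling tail of their own, including TREM1, which amplifies inflammation, and TREM2, which senses lipids and cell debris. CD14 hands bacterial lipopolysaccharide and related danger signals to Toll-like receptors, and PTPRC (CD45) is a phosphatase on all nucleated blood-lineage cells. CD68 is a lysosomal glycoprotein, AIF1 (IBA1) a calcium-binding protein used to stain microglia, and GPNMB a glycoprotein of phagocytes that have taken up lipid-rich debris. LGALS3 (galectin-3) and SPP1 (osteopontin) are secreted and bind glycans, CD44 and integrins on neighbouring cells. In whole tissue, fewer cells of a type and less RNA per cell cannot be told apart.

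All values are log2 values of the quantile-normalised signal in arbitrary units, so a difference of 1 is 2-fold, and levels of different probes are not set against each other. Tests were made with limma across all features with Benjamini-Hochberg adjustment, and a gene is said to rise or fall only with an adjusted p under 0.05.

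All 10 genes read higher in injured cord than in T0 at every time. The 4 injured and the 4 T0 arrays did not overlap in any of them. For Trem1 at T8 this holds for the readings only. Its probe was well above background on 0 of the 4 T0 arrays and 2 of the 4 T8 arrays. The share of all features without overlap was not counted. Since the genes were known for their higher signal in injured cord, it is read as a description. Of all features 44.1% passed the test in week 1, then 40.0%, 38.5% and 39.7% in weeks 2, 4 and 8. The median difference of the 10 genes was 3.37 in week 1 and then 2.81, 2.67 and 2.59, whereas that of all features in week 1 was -0.10. The same was so for T1_NPC, with a median of 3.20 and 52.7% of all features called, and for T2_NPC, with 2.62 and 47.7%.

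**Figure D1:**
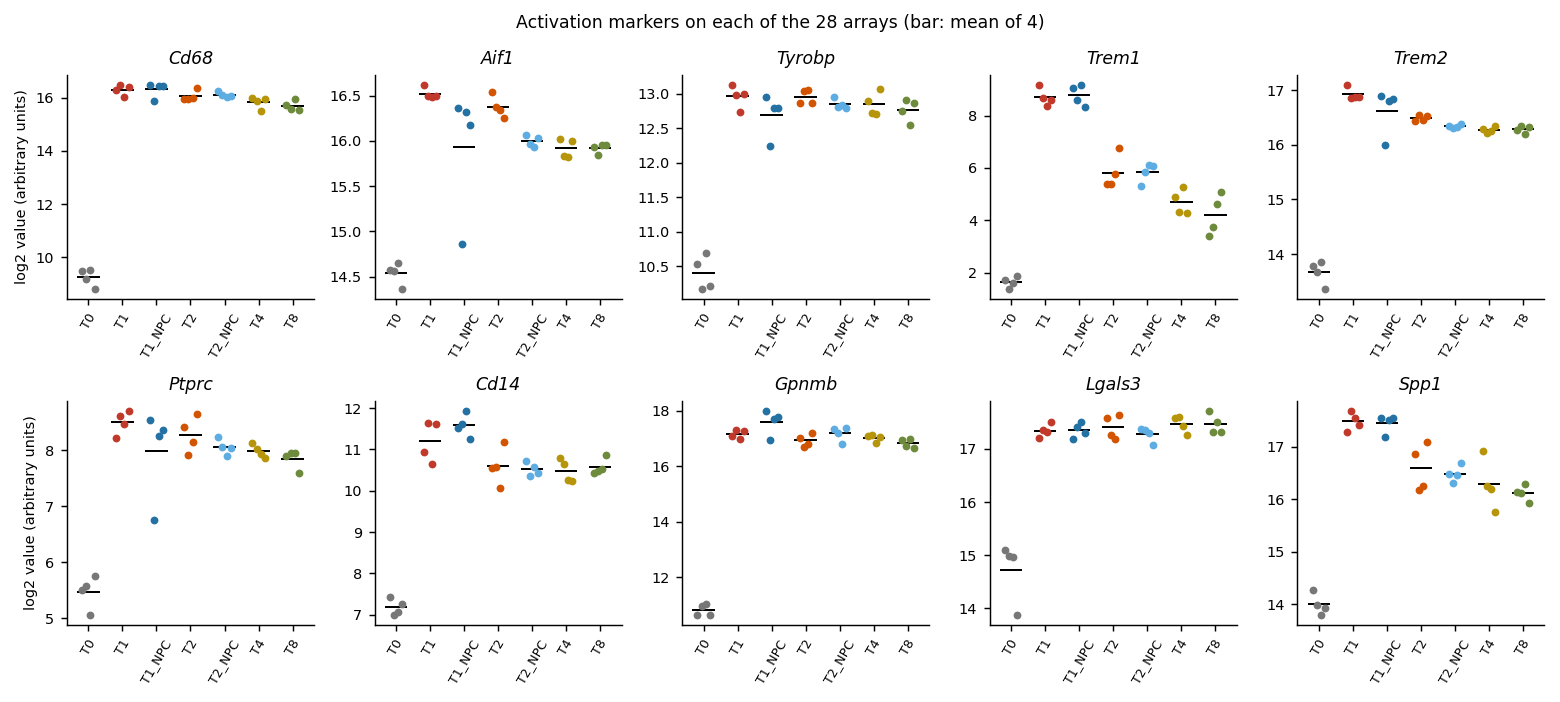
Log2 value (vertical axis, arbitrary units) of each of the 10 genes on each of the 28 arrays, by group on the horizontal axis; points are arrays in replicate order and the bar is the mean of 4. T0 lies below every other group in all panels, Trem1 and Spp1 step down from week 1 to week 8, and T1_NPC replicate 2 lies apart for Aif1, Ptprc and Trem2.

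The sizes at week 1 fell into a wide range. Cd68 stood at 9.47, 9.20, 9.51 and 8.83 on the T0 arrays and at 16.31, 16.47, 16.01 and 16.41 at T1, a log2 difference of 7.05 ± 0.16 (SE, n = 4 each) or 132-fold. Gpnmb was at 10.64 to 11.02 in T0 and at 16.98 to 17.32 at T1, a difference of 6.35 ± 0.17. Both were nearly as high 8 weeks after injury, with differences of 6.45 and 6.02 on the log2 scale. Cd14 followed with 4.02 ± 0.22 at T1, Spp1 with 3.48 ± 0.20, Trem2 with 3.26 ± 0.14, Ptprc with 3.03 ± 0.26 and Lgals3 with 2.61 ± 0.19. Aif1, which resting microglia already express, had the lowest difference, 1.98 ± 0.20, from 14.37 to 14.65 in T0 to 16.48 to 16.62 at T1.

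Trem1 needs a different reading because its probe was not well above background on any T0 array. Its 4 T0 arrays read 1.70, 1.39, 1.59 and 1.88, and only a bound exists there. Set against the lowest signal that counted as well above background on those arrays, its level was at least 25.7-fold higher in week 1. In weeks 2 and 4 it was at least 3.47-fold and 1.58-fold higher. The bound for T1_NPC was 27.2-fold and for T2_NPC 3.49-fold. At T8 the probe was well above background on only 2 of the 4 arrays, so no bound is given for week 8.

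**Figure D2:**
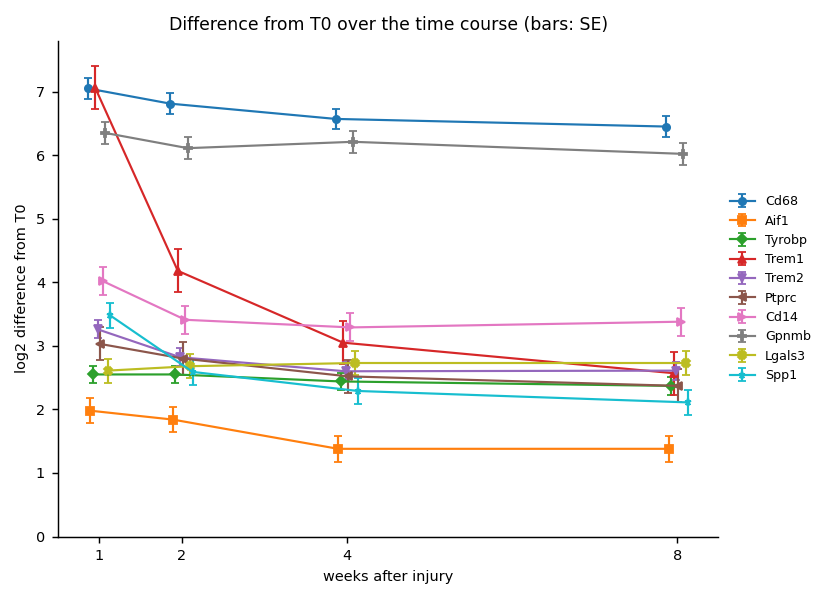
Log2 difference from T0 (vertical axis) of the 10 genes at 1, 2, 4 and 8 weeks after injury (horizontal axis), with bars of 1 SE from the limma fit and points shifted slightly sideways for legibility. Trem1 drops from 7.06 to 2.57, where its T0 level is only an upper limit, Spp1 drops from 3.48 to 2.11, and Lgals3 stays between 2.61 and 2.73.

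The injured groups were then compared with each other, to ask how the markers changed as the lesion aged. These comparisons share arrays, T1 in particular, and are not independent. From T1 to T8, 4 of the 10 genes fell, none rose and 6 did not pass the test, beside 9.87% of all features called. Trem1 is among the 4, and its comparison uses the T1 arrays of its known fall. For all 10, the T1 arrays are among the injured arrays whose higher signal was known at the choice. The falls from T1 are therefore not independent of that choice. The median difference of the 10 was -0.62, and that of all features was 0.00. From T1 to T2, 2 genes fell, beside 1.48% of all features; one of them was Trem1, whose fall was known beforehand, and the other was Spp1. Neither T4 against T2 (0.0761% of all features called) nor T8 against T4 (0.0902%) had a gene of the 10 past limma's adjusted threshold; at an unadjusted p under 0.05 there were 2 and 0. With scan session as a block, Aif1 passed from T2 to T4 (-0.45, adjusted p = 0.0150). Of the time course arrays, scan session 1 held 1 of T1 and 2 of T8, and session 2 held 3 and 2. Values within session 1 therefore rest on a single T1 array.

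Among the 10, Trem1 fell most. It read 9.18, 8.67, 8.37 and 8.61 in week 1 and 5.39, 5.38, 5.75 and 6.76 in week 2. In week 4 it read 4.90, 4.30, 5.27 and 4.28, and in week 8 3.41, 3.76, 4.62 and 5.07. The T1 arrays lay above all others, the T2 arrays above those of T4 without overlap, and those of T4 and T8 overlapped. Between T1 and T2 the difference was -2.89 ± 0.34, which is the value known when the genes were chosen. Between T1 and T8 it was -4.49 ± 0.34, also a description, since the T1 arrays are those of the known fall. The probe was well above background on only 2 of the 4 T8 arrays, so that the size is less certain than its error. The difference between T1 and T8 was -4.77 within session 1 and -4.53 within session 2. Between T2 and T4 it was -1.13 ± 0.34 and did not pass (adjusted p = 0.241).

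Spp1, read by 10 spots of one probe, fell next. Its values were 17.29, 17.68, 17.55 and 17.41 in week 1 and 16.86, 16.18, 16.25 and 17.09 in week 2. In week 4 they were 16.92, 16.26, 16.19 and 15.76, and in week 8 16.13, 16.11, 16.29 and 15.92. All T1 arrays were above those of every later time, while T2, T4 and T8 overlapped. The difference was -0.89 ± 0.20 from T1 to T2 (adjusted p = 0.0245) and -1.37 ± 0.20 from T1 to T8 (2.59-fold, adjusted p = 5.25e-05). Within sessions 1 and 2 the former was -1.08 and -0.57, and the latter -1.28 and -1.34. The call at T2 depends on single arrays while the difference moved little. It no longer passed without T1 replicate 2 (-0.82, adjusted p = 0.0962), T1 replicate 4 (-0.91, 0.0541), T2 replicate 2 (-0.75, 0.0689) or T2 replicate 3 (-0.78, 0.0997).

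Trem2 and Cd68 fell by smaller amounts. Trem2 read 17.10, 16.86, 16.87 and 16.88 at T1 and 16.28, 16.34, 16.19 and 16.33 at T8, without overlap, a difference of -0.65 ± 0.14 (1.57-fold, adjusted p = 0.00305). Its difference at T2 was -0.44 ± 0.14 and did not pass (adjusted p = 0.122), although all T2 arrays, at 16.43 to 16.54, lay below those of T1. With scan session as a block Trem2 did pass there (-0.48, adjusted p = 0.00224). Cd68 read 15.72, 15.59, 15.97 and 15.54 at T8, below the T1 values given above, a difference of -0.59 ± 0.16 (adjusted p = 0.0197). That call was lost, with little change in the difference, when T1 replicate 2 (-0.54, adjusted p = 0.0747), T1 replicate 4 (-0.56, 0.0631), T8 replicate 2 (-0.55, 0.0653) or T8 replicate 4 (-0.54, 0.0719) was left out. Within sessions 1 and 2 the change to T8 was -0.77 and -0.64 for Trem2 and -0.74 and -0.45 for Cd68. Fitted within session 2 alone, Spp1 (adjusted p = 0.00720), Trem2 (0.0102), Ptprc (0.0122) and Aif1 (0.0289) passed from T1 to T8, and Cd68 did not (0.295). Trem1 passed there too, which is a description.

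The other 6 did not pass between T1 and T8. Aif1 had a difference of -0.60 ± 0.20 (adjusted p = 0.0585) with no overlap, from 16.48 to 16.62 at T1 to 15.84 to 15.96 at T8. Ptprc had -0.65 ± 0.26 (adjusted p = 0.125) and Cd14 -0.64 ± 0.22 (adjusted p = 0.0718), the latter with overlapping groups. Without T1 replicate 3, which read 10.66 for Cd14 when the other T1 arrays read 10.93 to 11.64, the Cd14 difference was -0.83 and passed (adjusted p = 0.0182). Tyrobp had -0.19 ± 0.14 and Gpnmb -0.33 ± 0.17. Lgals3 had 0.12 ± 0.19, with a 95% interval from -0.26 to 0.51, and its 4 values were 17.21, 17.35, 17.31 and 17.50 at T1 and 17.71, 17.31, 17.51 and 17.32 at T8. With scan session as a block, Aif1 (-0.61, adjusted p = 5.14e-05), Ptprc (-0.57, 0.00250) and Tyrobp (-0.26, 0.0379) also passed, so that 7 of 10 fell.

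In level order over the 7 groups, T0 was lowest for every gene and did not overlap its neighbour. For Trem1 that neighbour was T8, and the step is uncertain because both groups held readings that were not well above background. Above T0, most neighbouring groups overlapped: for Cd68, Tyrobp, Ptprc, Cd14, Gpnmb and Lgals3 no further step separated 2 adjacent groups. Trem1 had 3 steps without overlap, and its order from low to high was T0, T8, T4, T2, T2_NPC, T1 and T1_NPC. Trem2, Aif1 and Spp1 had 2 such steps each. The share of all features with such steps was not counted, so these counts are a description.

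The start of a gene is where its transcription is controlled, so the 250 bases before the start are shown for the 4 genes that fell between T1 and T8 and for Gpnmb, which did not pass there. They are RefSeq sequences of build GRCr8 on the strand of the gene, matched by symbol for 7 of the 10 genes; Aif1, Tyrobp and Lgals3 have no entry. They lie at chr9:20272470-20272719 (minus strand) for Trem1, chr14:5619805-5620054 (minus) for Spp1, chr9:20151780-20152029 (minus) for Trem2, chr10:54882442-54882691 (minus) for Cd68 and chr4:79340878-79341127 (plus) for Gpnmb. For Trem1 and Spp1 the start used lies inside the span RefSeq gives the gene. Capitals mark 3 motifs searched on both strands: TGANTCA (AP-1), AGGAAG (the core that PU.1, a factor of macrophages, binds) and TCACNTG (the MiT/TFE factors of lysosomal genes).
Trem1: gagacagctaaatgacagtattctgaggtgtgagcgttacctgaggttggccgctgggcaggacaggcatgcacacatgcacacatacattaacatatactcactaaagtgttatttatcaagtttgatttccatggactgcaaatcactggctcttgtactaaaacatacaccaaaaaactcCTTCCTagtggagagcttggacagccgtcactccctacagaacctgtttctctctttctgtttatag
Spp1: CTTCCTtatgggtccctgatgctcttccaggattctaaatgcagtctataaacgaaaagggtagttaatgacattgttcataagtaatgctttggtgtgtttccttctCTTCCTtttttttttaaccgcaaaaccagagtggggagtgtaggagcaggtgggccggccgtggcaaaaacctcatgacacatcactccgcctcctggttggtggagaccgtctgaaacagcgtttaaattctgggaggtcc
Trem2: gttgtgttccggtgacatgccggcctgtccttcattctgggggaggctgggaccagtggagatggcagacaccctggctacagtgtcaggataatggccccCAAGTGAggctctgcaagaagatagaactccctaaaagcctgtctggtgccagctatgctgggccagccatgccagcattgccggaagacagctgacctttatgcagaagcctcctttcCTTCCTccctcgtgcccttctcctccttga
Cd68: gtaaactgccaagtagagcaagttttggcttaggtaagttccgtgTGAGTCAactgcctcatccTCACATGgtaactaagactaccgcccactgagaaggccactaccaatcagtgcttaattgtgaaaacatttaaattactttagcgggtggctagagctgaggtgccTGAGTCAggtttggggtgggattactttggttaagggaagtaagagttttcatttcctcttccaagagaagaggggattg
Gpnmb: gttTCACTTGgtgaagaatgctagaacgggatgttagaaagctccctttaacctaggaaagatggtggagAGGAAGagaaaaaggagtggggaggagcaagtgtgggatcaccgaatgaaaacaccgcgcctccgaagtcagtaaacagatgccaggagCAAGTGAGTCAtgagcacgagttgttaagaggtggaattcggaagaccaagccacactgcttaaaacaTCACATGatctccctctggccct

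Trem1, Spp1 and Trem2 held AGGAAG and no TGANTCA, and Cd68 the reverse, with TGAGTCA 205 and 80 bases before its start. Gpnmb held 1 AP-1 match, 1 AGGAAG and 3 matches of TCACNTG, the nearest starting 23 bases before the start; its AP-1 match overlaps a MiT/TFE match. Of the 7 promoters searched, 6 held AGGAAG, 2 TGANTCA and 3 TCACNTG, against 29.5%, 6.3% and 13.1% of the 33469 promoters in the table. Trem1 and Spp1 are counted among the 7, although their starts lie inside the span of the gene and may not be its first. A match is only a run of letters, sites spelled otherwise were not searched, and binding was not measured. A promoter without AGGAAG can therefore still hold a PU.1 site.

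Tyrobp, Cd14 and Ptprc were read by more than 1 probe, and for Tyrobp these read different strands. Probe A_42_P807697, designed on the RefSeq transcript, lies on the plus strand at chr1:85369110-85369169 (rn4, the build the scanner outputs use), and A_44_P526676, designed on an expressed sequence tag, lies 8 bases away at chr1:85369042-85369101 on the minus strand. The stretches of 30 bases below show the difference: the first holds the polyadenylation signal AATAAA (capitals) of the transcript's end, and the second matches the transcript only as its reverse complement.
A_42_P807697: cccgctggAATAAAtatccacagagtgccc
A_44_P526676: tctggaatgagtggatccgggcatcaggtt
A_44_P526676, reverse complement: aacctgatgcccggatccactcattccaga

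The gene mean of Tyrobp therefore joins signal from both strands, and each probe is given on its own. A_42_P807697 read 13.10 to 13.52 in T0 and 16.22 to 16.57 at T1, a difference of 3.09 ± 0.14, and 2.66 ± 0.14 at T8. A_44_P526676 read 7.13 to 7.87 in T0 and 9.25 to 9.82 at T1, 2.02 ± 0.18 higher, and 2.07 ± 0.18 at T8. Between T1 and T8 the former changed by -0.43 ± 0.14 (adjusted p over all probes 0.0601) without overlap, and the latter by 0.05 ± 0.18. What transcript the minus-strand probe reads was not tested.

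**Figure D3:**
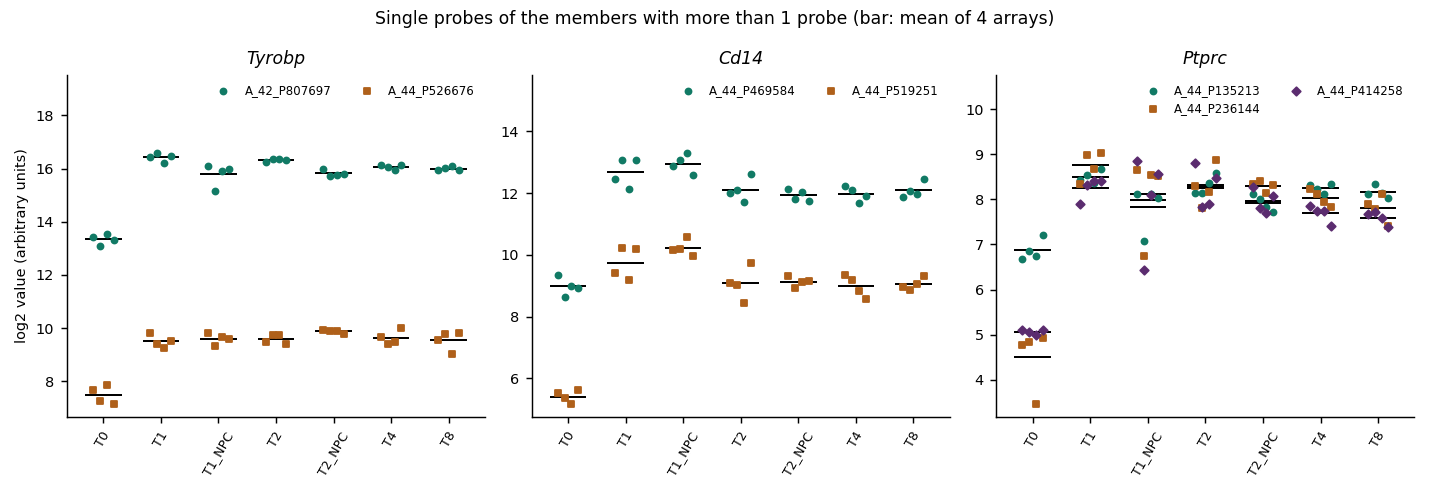
Log2 value (vertical axis, arbitrary units) of each probe of Tyrobp, Cd14 and Ptprc on the 28 arrays, by group on the horizontal axis, with the mean of 4 arrays as a bar. The upper Tyrobp probe, A_42_P807697, is lower in each transplanted group than in its matched injured group, and the lower probe, A_44_P526676, is not.

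The 2 probes of Cd14 moved alike, by 3.70 ± 0.22 and 4.34 ± 0.24 from T0 to T1. The 3 probes of Ptprc rose by different amounts, 1.63 ± 0.18 for A_44_P135213, 4.26 ± 0.34 for A_44_P236144 and 3.19 ± 0.32 for A_44_P414258. The first of them spans chr13:51298987-51357767 in rn4, so it crosses introns towards the start of the gene. Ptprc is known to be spliced differently between blood cells. Whether this probe covers those exons, and whether that bears on its smaller rise, was not tested. A_44_P236144 was well above background on 3 of 4 T0 arrays and the other 2 probes on all.

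Transplantation was asked about by setting T1_NPC against T1 and T2_NPC against T2. None of the 10 genes passed limma's adjusted threshold in either comparison, beside 11.9% and 9.47% of all features; at an unadjusted p under 0.05 there were 3 and 0. Without T1_NPC replicate 2, 1 of the 10 (Gpnmb) passed in the former. The median difference of the 10 was -0.01 (0.02 without that array) and -0.11, and that of all features was -0.01 and -0.03. The difference between the acute and the subacute effect passed for none of the 10 (0 at an unadjusted p under 0.05), beside 0.299% of all features.

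Several genes had narrow intervals. These bound the difference between the groups of arrays, in which transplantation, slide and session cannot be told apart. Lgals3 differed by 0.01 in T1_NPC (95% interval -0.38 to 0.39) and by -0.14 in T2_NPC (-0.52 to 0.25). Cd68 differed by 0.01 (-0.33 to 0.35) and 0.04 (-0.30 to 0.38), and Spp1 by -0.04 (-0.46 to 0.38) and -0.10 (-0.52 to 0.31). Trem1, which of the 10 separated T1 from T2 most, read 9.04, 8.61, 9.17 and 8.34 in T1_NPC and 5.30, 5.84, 6.10 and 6.09 in T2_NPC, overlapping T1 and T2 respectively. Its intervals were wider, -0.61 to 0.77 and -0.68 to 0.70. Without T1_NPC replicate 2 the T1_NPC intervals were -0.44 to 0.41 for Lgals3, -0.17 to 0.49 for Cd68, -0.40 to 0.49 for Spp1 and -0.62 to 0.90 for Trem1.

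Aif1 was lower in both transplanted groups without overlap with the matched injured group. It read 16.36, 14.86, 16.32 and 16.17 in T1_NPC against 16.48 to 16.62 in T1, a difference of -0.59 ± 0.20 (adjusted p = 0.0541). In T2_NPC it read 16.06, 15.97, 15.93 and 16.03 against 16.25 to 16.54 in T2, a difference of -0.38 ± 0.20 (adjusted p = 0.255). Neither passed, but the former did when T1_NPC replicate 1, 3 or 4 was left out (adjusted p = 0.0206, 0.0275 and 0.0436) and not without replicate 2 (-0.24 ± 0.09, adjusted p = 0.101). Among 12 arrays whose scanner output and column name the same sample, 4 of T2_NPC and 2 of T2, the latter difference was -0.35 and passed (adjusted p = 0.0211).

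Gpnmb was the only one of the 10 whose T1_NPC difference was above 0 with an interval that left out 0. It read 17.99, 16.96, 17.69 and 17.76 in T1_NPC against 17.09, 17.32, 16.98 and 17.27 in T1, a difference of 0.43 ± 0.17 (adjusted p = 0.107). Without T1_NPC replicate 2 it was 0.65 ± 0.15 and passed (adjusted p = 0.00905, 95% interval 0.34 to 0.96, 1.57-fold), when 8.51% of all features passed. In T2_NPC the difference was 0.25 ± 0.17 (adjusted p = 0.408).

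The RefSeq-strand probe of Tyrobp passed in both comparisons when probes were tested singly. A_42_P807697 read 16.09, 15.15, 15.91 and 16.00 in T1_NPC, all below T1 at 16.22 to 16.57, a difference of -0.64 ± 0.14 (1.56-fold, adjusted p over all probes 0.00548). In T2_NPC it read 15.98, 15.72, 15.77 and 15.81, all below T2 at 16.23 to 16.37, a difference of -0.50 ± 0.14 (1.42-fold, adjusted p = 0.0271). Without T1_NPC replicate 2 the former was -0.43 ± 0.10 and still passed (adjusted p = 0.0107). The minus-strand probe differed by 0.11 ± 0.18 and 0.28 ± 0.18 and did not pass (adjusted p = 0.749 and 0.355), and the gene mean of both by -0.26 ± 0.14 and -0.11 ± 0.14. Without T1_NPC replicate 2 the T1_NPC differences of the minus-strand probe and of the gene mean were 0.20 ± 0.19 and -0.11 ± 0.13. Among the Ptprc probes, A_44_P135213 was lower in T1_NPC by -0.66 ± 0.18 (adjusted p = 0.0168), and by -0.41 ± 0.13 without replicate 2, which did not pass (adjusted p = 0.0564). Slide and session go with the transplanted groups, and their part in these differences cannot be told apart. Fewer spots were well above background on T1_NPC arrays (74.5 to 76.4%) than on T1 arrays (79.0 to 81.9%). What part this had was not tested.

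**Figure D4:**
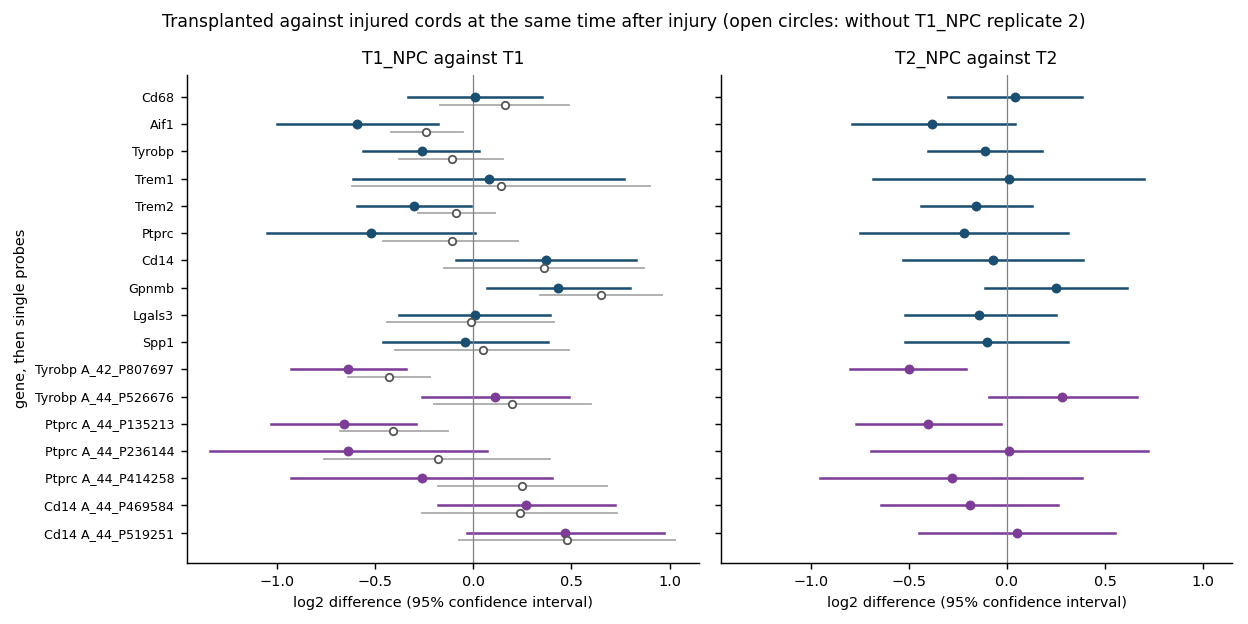
Log2 difference (horizontal axis) with its 95% confidence interval for each gene and for the single probes of Tyrobp, Ptprc and Cd14 (vertical axis), T1_NPC against T1 on the left and T2_NPC against T2 on the right; open circles leave out T1_NPC replicate 2. The interval of A_42_P807697 lies below 0 in both panels, and that of Gpnmb moves up to 0.34 to 0.96 without replicate 2.

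T1_NPC replicate 2 differed from the other 3 arrays of its group in a graded way. Its value was lower by 1.64 for Ptprc, 1.42 for Aif1, 0.85 for Trem2 and for Gpnmb, 0.61 for Tyrobp, 0.58 for Cd68 and 0.35 for Spp1. Trem1, Cd14 and Lgals3 lay within the range of the others, with Lgals3 at 17.41 among 17.19 to 17.50. Without this array the T1_NPC differences of Ptprc and Aif1 shrank from -0.52 to -0.11 and from -0.59 to -0.24 (adjusted p = 0.752 and 0.101).

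Other gene lists moved on the same array. The mean log2 level of 11 genes of resting microglia was 8.60 there and 9.71 to 10.23 on the other 3, and that of 9 T- and B-cell genes was 4.20 and 5.93 to 6.43. For 9 TREM and TYROBP signalling genes it was 8.63 and 10.07 to 10.55. Genes listed for blood-derived macrophages lay within the range, at 9.73 among 9.67 to 10.31, and neuron genes above it, at 12.34 and 11.36 to 11.83. Red blood cell genes were also above it, at 9.53 and 8.58 to 9.13, as were neutrophil genes, at 5.79 and 5.27 to 5.49. Astrocyte genes were below it, at 12.07 and 12.28 to 12.52, and so was the phagocyte programme, at 13.53 and 13.71 to 13.86. The part of these in the result was not tested.

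**Figure D5:**
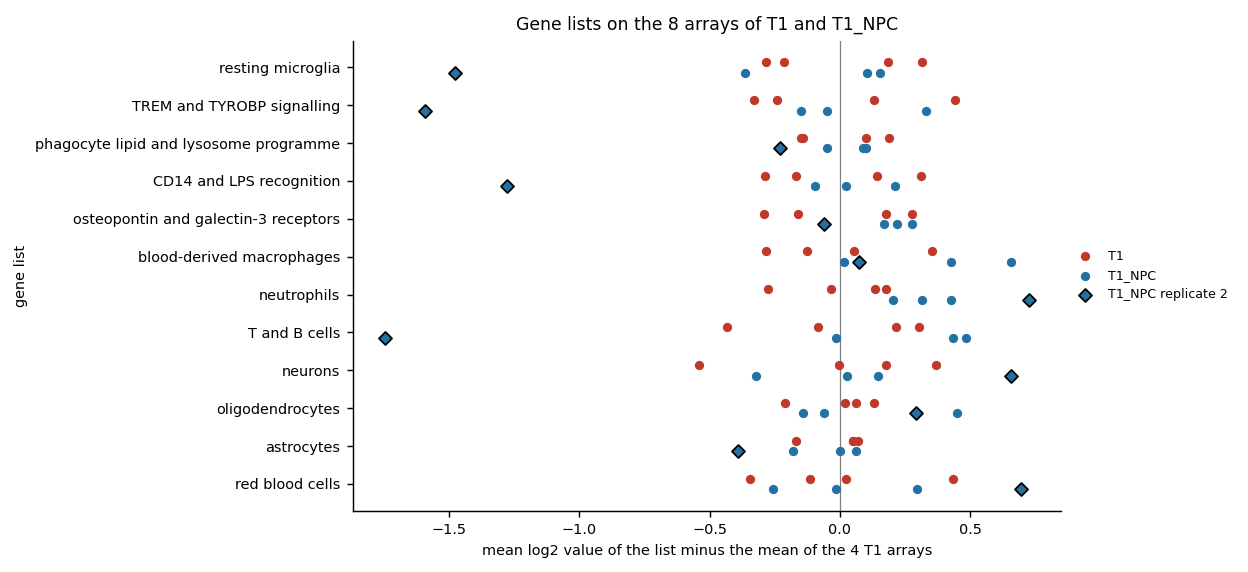
Mean log2 value of each gene list minus the mean of the 4 T1 arrays (horizontal axis), by list (vertical axis), on the 4 T1 and the 4 T1_NPC arrays; the diamond is T1_NPC replicate 2. It lies below all other arrays for resting microglia, TREM and TYROBP signalling, the phagocyte programme, CD14 and LPS recognition, T and B cells and astrocytes, and above them for neutrophils, neurons and red blood cells.

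Partners of these genes in the same pathways were read from lists of known members, chosen with earlier results of these data known. Their counts against T0 are therefore descriptions. The counts of these and the following lists stand beside 44.1% of all features called for T1 against T0, 39.7% for T8 against T0, 9.87% from T1 to T8, 11.9% for T1_NPC and 9.47% for T2_NPC. Of 9 TREM and TYROBP signalling genes measured, all 9 were higher at T1 than in T0 and 4 fell from T1 to T8, with a median of -0.90: the kinases Syk (-1.06 ± 0.33, adjusted p = 0.0389) and Btk (-0.93 ± 0.24, adjusted p = 0.0121), the phospholipase Plcg2 (-0.90 ± 0.29, adjusted p = 0.0496) and the adaptor Card9 (-0.60 ± 0.13, adjusted p = 0.00243). None of the 9 passed in either transplantation comparison. Of 8 genes of lipopolysaccharide recognition around CD14, all 8 were higher at T1 than in T0 and 3 fell to T8, Cd180 by 1.41 on the log2 scale, Tlr2 by 1.06 and Ly96 by 0.71; Ly96 was also lower in T2_NPC than in T2 (-0.51 ± 0.16, adjusted p = 0.0436).

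Of 11 genes of the lipid and lysosome programme of phagocytes, all 11 were higher at T1 and at T8 than in T0. From T1 to T8, Lpl, which frees fatty acids from lipoproteins, fell by 1.52 and the lysozyme Lyz2 by 1.09, and the macrophage growth factor Csf1 rose by 0.46. Ctsd, a lysosomal protease, was lower in T1_NPC (-0.43 ± 0.09, adjusted p = 0.00254; -0.36 ± 0.08, 0.00888 without replicate 2), and Lpl in T2_NPC (-1.27 ± 0.30, adjusted p = 0.00944). Of 9 receptors of osteopontin and galectin-3, 7 were higher at T1 than in T0, and 1, Itgb1, fell to T8 by 0.39. The integrin chains Itgb1 and Itgb5 were higher in both transplanted groups: Itgb1 by 0.67 ± 0.12 in T1_NPC (adjusted p = 8.47e-04) and 0.65 ± 0.12 in T2_NPC (0.00126), and Itgb5 by 0.36 ± 0.11 (0.0444) and 0.57 ± 0.11 (0.00308). Without T1_NPC replicate 2 both still passed, at 0.60 and 0.42.

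Markers of other states and cells are given beside these. Of 11 genes of resting microglia, 7 were higher at T1 than in T0, with a median of 1.12, and 1, the sugar transporter Slc2a5, fell from T1 to T8 (-0.59 ± 0.15, adjusted p = 0.0139), a share near that of all features. In T1_NPC the purinergic receptor P2ry12 (-1.06 ± 0.31, adjusted p = 0.0271) and the transcription factor Sall1 (-0.51 ± 0.10, adjusted p = 0.00277) were lower than in T1, and without replicate 2 they were at -0.51 and -0.44 and still passed. Sall1 was higher in T2_NPC than in T2 by 0.46 ± 0.10 (adjusted p = 0.00716), and its acute and subacute effects differed by -0.97 ± 0.15 (adjusted p = 0.00184).

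Of 12 genes listed for blood-derived macrophages, 11 were higher at T1 than in T0. From T1 to T8, 5 fell, the most Msr1, by 1.76 ± 0.50, and Vcan, by 1.31 ± 0.13. Mrc1, Itgam, Itgb2, Emr1, Fcgr1a, Vcan, Plac8 and Ms4a7 were well above background on all 4 uninjured arrays, and Cd163, Msr1, Ccr2 and Marco were not. Ccr2 was so on 2 of the 4 T1 arrays. The list is therefore not specific to cells from the blood, and its counts are not a measure of them. The mannose receptor Mrc1 was higher in T1_NPC than in T1 by 0.86 ± 0.27 (adjusted p = 0.0396), and without replicate 2 none of the 12 passed. Of 10 neutrophil genes, 4 were higher at T1, a share near that of all features, and 2 fell to T8, Mmp8 by 2.60 and Csf3r by 1.30; Mpo was above background on only 1 of the 28 arrays. Of 9 T- and B-cell genes, 6 were higher at T1 and at T8 than in T0, and none passed from T1 to T8 or in either transplantation comparison. Of the neuron genes, 9 of 10 were lower at T1 and at T8. Of 7 astrocyte genes, 4 rose from T1 to T8, the most Aldh1l1, by 1.18 ± 0.16, and the water channel Aqp4, by 0.96 ± 0.25. Of the 8 oligodendrocyte genes, Mbp (1.43 ± 0.27) and Mobp (0.70 ± 0.21) were higher in T2_NPC than in T2, as was the red blood cell gene Hbb (2.11 ± 0.41, adjusted p = 0.00209).

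The genes whose 7 group means ran most like those of a member were found among 14614 named features, by the root mean square difference of the centred means in log2 units, as a description. Trem2 ran closest to Fcer1g, an adaptor of immunoglobulin receptors (0.09), Ctsz, a lysosomal protease, and Snx20 (both 0.10). Ptprc ran closest to Tgfb1 (0.04), Aldh1l2 (0.06) and Fcer1g (0.07), and Lgals3 to the immunoglobulin receptor Fcgr2b (0.07), Mdfic (0.07) and Emp3 (0.09). Aif1 was nearest to Efcab4a (0.07), Klrb1a (0.09) and Kcnk13 (0.11), Tyrobp to Man2b2 (0.08), Nid2 (0.10) and Mdfic (0.11), and Cd14 to Mboat1 (0.14), Dab2 (0.16) and Ucn2 (0.16).

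For the others, Spp1 was nearest to Amdhd2 (0.15), Npl (0.17) and Loxl2 (0.18), and Cd68 to Ifitm1 (0.21), Hk3 (0.28) and Cd8a (0.32). Gpnmb was nearest to Plaur and Slamf9 (both 0.33) and Hk3 (0.34). Trem1, whose T0 mean lies below background and enters its distances, was nearest to the matrix protein gene Postn (0.45) and to Vsig4 (0.56). Among the 10 themselves the closest pair was Tyrobp and Lgals3 (0.13).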

How the data were processed

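RNA from rat spinal cord was hybridised to 1-colour Agilent 4x44K arrays and read with Agilent Feature Extraction 10.7.1.1. According to the methods, the authors background-corrected the signals with Agilent's procedure and quantile-normalised them, and the deposited value table holds log2 values. The deposited scanner outputs hold intensity values per spot. Gene symbols, probe positions and sequences came from the 8 outputs that carry them. Control spots (1639) were left out. Each value column was matched to the output with its rank order, since both name different samples for 16 arrays.

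Repeated spots of a probe were averaged, then the probes of a gene symbol, with no pseudocount and no filter. Group means were fitted over all 28 arrays with limma 3.58.1 in R 4.3.3 (lmFit, contrasts, eBayes), and p-values were Benjamini-Hochberg adjusted over 35469 features. The number of arrays limits the precision. Between 74.5 and 82.7% of spots per array were well above background and 0 were saturated. By group the share was 74.5 to 76.4% in T1_NPC against 79.0 to 81.9% in T1, without overlap. It was 78.0 to 80.9% in T2_NPC against 75.1 to 81.3% in T2. The fit was tested on simulated data.

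The members and gene lists were chosen with earlier results of these data known. Named were the 10 members, the 3 nearest non-members of each, and of each list the 2 largest rises and falls called in the transplantation comparisons or from T1 to T8, with further called list genes chosen after their values were seen. Some items under these rules are not reported here. Synonyms in RefSeq's gene table (GRCr8) served to match list symbols; Gpr34, Hcst, Treml2, Clec5a, Sirpb1, Clec7a, Itgax, Cd79a, Hba-a2 and Hba1 had no feature. Alternatives covered the scanner values, scaling, background correction, filters, probe choice, blocks and left-out arrays. The mean signal column is in only 8 outputs, so the background correction used the median signal.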

Additional observations from a re-analysis of the deposited data

Results flagged for a closer look

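In each group of 4 arrays, a value far from the other 3 was singled out by Dixon's ratio at the 95% level. Of 70 groups (10 genes in 7 groups), 9 held such a value, and about 1 in 20 would be found by chance. T1_NPC replicate 2 accounted for 5 of them, on the low side: Cd68 at 15.88 (others 16.43 to 16.49), Aif1 at 14.86 (16.17 to 16.36), Trem2 at 15.99 (16.80 to 16.89), Ptprc at 6.75 (8.25 to 8.54) and Spp1 at 17.18 (17.50 to 17.55). The genes are correlated on an array, so these are not 5 separate events.

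T1 replicate 1 was high for Aif1, at 16.62 with the others at 16.48 to 16.49, and for Trem2, at 17.10 with the others at 16.86 to 16.88. T2 replicate 4 was high for Cd68, at 16.38 with the others at 15.94 to 15.99. T0 replicate 4 was low for Lgals3, at 13.88 with the others at 14.96 to 15.10. The cause was not tested in any of them. No member's acute and subacute transplantation effects differed by the test of that difference.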

How the results depend on the processing

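The higher level of all 10 genes in every injured group against T0 passed under all alternatives but the deposited sample names, apart from Trem1 at T8 (0.26, adjusted p = 0.146, with normexp correction). Under the deposited sample names, 0 of the 10 genes passed in each of the 6 comparisons with T0, 0 from T1 to T2 and 0 from T1 to T8, where Cd68 (1.50), Trem2 (0.61) and Spp1 (0.20) had the opposite direction. With 12 undisputed arrays 1 gene passed in T2_NPC and 1 from T1 to T2, where T1 has 1 such array, assumed to vary like the other groups; T1_NPC has 0 and was not tested. From T1 to T2, 1 gene passed with the compared groups alone, 1 at 2-fold or more, and 0 within session 1 (where T1 has 1 array) or session 2. From T2 to T4, 1 (Aif1) passed with slide fixed, 1 with slide random and 1 with session fixed. From T1 to T8, 7 passed with session fixed, 1 within session 1 and 2 at 2-fold or more; Aif1 passed under 9 of the alternatives.

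For T1_NPC against T1, 1 gene (Aif1) passed with 75th percentile scaling, 1 with normexp, 1 with probes above background and 1 with trend and robust; 2 passed with the brightest probe and 2 with single probes (Tyrobp and Ptprc); 1 passed with Tyrobp's RefSeq-strand probe alone, an alternative chosen after seeing the data. For T2_NPC against T2 these last 3 gave 1 each. Leaving out each array in turn gave 10 of 10 against T0, 1 to 2 from T1 to T2, 3 to 5 from T1 to T8, 0 to 1 for T1_NPC and 0 for the other comparisons. The cause was not tested.

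Same-numbered samples did not deviate together in every pair (correlations -0.34 to 0.30), so the numbers do not pair them. The replicate block gave 10 against T0, 2 from T1 to T2, 4 from T1 to T8 and 0 elsewhere, as without the block. With 75th percentile scaling the median of all features was -0.28 for T1 against T0 (-0.10 in the value table) and 0.16 for T8 against T1 (0.00).

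Under the deposited sample names, at most 2.31% of all features were called in any comparison. Under the other alternatives apart from left-out arrays the share was 0.197% to 5.12% from T1 to T2, 1.5% to 17.3% from T1 to T8, 3.45% to 20.6% for T1_NPC, 1.78% to 20.9% for T2_NPC, 0% to 1.13% from T2 to T4, 0.00564% to 0.429% from T4 to T8 and 0.113% to 5.33% for the difference of effects. Against T0 it was 20.7% to 53.9% at T1, with the lowest at 2-fold or more. Low signal limits Trem1 in T0 and at T8.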
